A study of Oryza sativa with 10 samples.

Results

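Regions that carried a histone mark in the leaves of GL, 93-11 and TQ but had no called peak in at least 1 of the hybrids GL×93-11 and GL×TQ are described here. For each mark the 5 peak lists were pooled and intervals that shared 1 bp or more were merged, and a merged region was kept when it held peaks of all 3 varieties and none of at least 1 hybrid. A total of 807 of the 26760 merged regions of both marks met this rule, 410 of 13647 for H3K27me3 and 397 of 13113 for H3K36me3. These regions are called missing below, which means that no peak was called in the hybrid and not that the mark was shown to be absent from it. The regions were chosen by the peak calls of the 5 lists, so counts, lengths, scores and tags of the members are a description and no test was made on them.

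H3K27me3 is set by Polycomb complexes and lies mostly over repressed genes, while H3K36me3 is laid down during transcription and lies over the bodies of expressed genes. In plants both marks are spread over gene bodies, and the peaks of both are wide. The comparison asks whether a region called in every variety was also called in the hybrids made from them.

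The samples were second fully expanded leaves of 5 indica genotypes grown in plots in the same summer, for which no treatment is named. GL stands for the variety Guangluai-4, TQ for Teqing, and 93-11 is also known as Yangdao-6. The first-generation hybrids share GL as a parent, whereas TQ is not a parent of GL×93-11 and 93-11 is not a parent of GL×TQ. Leaves of 3 plots were pooled per genotype before the chromatin was precipitated with an antibody against each mark, giving 10 libraries with 1 per genotype and mark. Replicate errors and p-values can therefore not be given, and the 95% intervals given cover counting error only, with sequenced reads that carry no molecular identifiers and regions that are not independent of each other. The authors mapped all reads to Nipponbare, a japonica variety, and peaks were called in each library on its own.

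The H3K27me3 lists held 8385 to 9639 peaks with 3378454 to 4634144 tags, which are mapped reads within peaks, or 8.53% to 11.0% of the unique mapped reads. The H3K36me3 lists held 9505 to 10136 peaks with 5364527 to 7096067 tags, or 13.4% to 14.9%. Each peak has a score, the negative log10 of the peak caller's p-value multiplied by 10, which starts at about 50 in every list, and a fold enrichment over the local background. A level is given as tags per kb of peak per 1000000 unique mapped reads. The lists hold nothing between the peaks, so the tags of a hybrid at a region it lacks are not known, and genes were not placed because no annotation of the build was used here.

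For H3K27me3, 5338 regions had peaks of all 3 varieties, and 4928 of them had peaks of both hybrids. The 410 missing regions were 7.68% of the 5338 (95% Wilson interval 7.0% to 8.43%). GL×93-11 lacked 281 (5.26%, 4.70% to 5.90%) and GL×TQ lacked 192 (3.6%, 3.13% to 4.13%). Only GL×93-11 lacked a peak at 218 regions, only GL×TQ at 129, and both hybrids at 63. The list of GL×93-11 had 8392 H3K27me3 peaks and that of GL×TQ had 8621. With every list reduced to its strongest peaks, as many as the shortest list held, GL×93-11 still lacked more regions than GL×TQ, 182 against 138. The shares were then 3.755% (3.255% to 4.328%) and 2.847% (2.415% to 3.354%), with intervals that overlap. The paper's PCR check of the H3K27me3 precipitation gave a lower enrichment in GL×93-11 than in any other genotype. Whether this bears on the order of the hybrids for H3K27me3 was not tested.

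For H3K36me3, 397 of the 7047 regions of all 3 varieties were missing in at least 1 hybrid (5.63%, 5.12% to 6.20%) and 6650 were present in all 5 genotypes. GL×93-11 lacked 231 (3.28%, 2.89% to 3.72%) and GL×TQ lacked 215 (3.05%, 2.67% to 3.48%), and these intervals overlap. Regions without a peak numbered 182 in GL×93-11 alone, 166 in GL×TQ alone and 49 in both hybrids. Here GL×93-11 had the longer list, with 10136 peaks against 9505, and with lists of equal length it lacked 300 regions against 175. The order of the hybrids depended on the parents that were asked for. Where only the own parents of each hybrid had to carry a peak, GL×TQ lacked 417 of 7879 H3K36me3 regions (5.29%, 4.82% to 5.81%) and GL×93-11 322 of 7505 (4.29%, 3.86% to 4.77%), so the order turned. For H3K27me3 the shares were then nearly equal, 592 of 6590 (8.98%, 8.32% to 9.70%) in GL×TQ and 549 of 6268 (8.76%, 8.08% to 9.48%) in GL×93-11.

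Under the same count, the shares of the hybrids were below those of the varieties. Among H3K27me3 regions with peaks in the other 4 lists, GL lacked 474 (8.77%), 93-11 lacked 532 (9.74%) and TQ lacked 434 (8.09%), beside 218 (4.24%) for GL×93-11 and 129 (2.55%) for GL×TQ. The H3K36me3 shares were 8.15% in GL, 6.63% in 93-11 and 3.43% (3.02% to 3.88%) in TQ, beside 2.66% (2.31% to 3.07%) in the hybrid of 93-11 and 2.44% in that of TQ. The hybrids had the lowest shares for both marks, and only the H3K36me3 intervals of TQ and GL×93-11 overlapped between a variety and a hybrid.

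**Figure D1:**
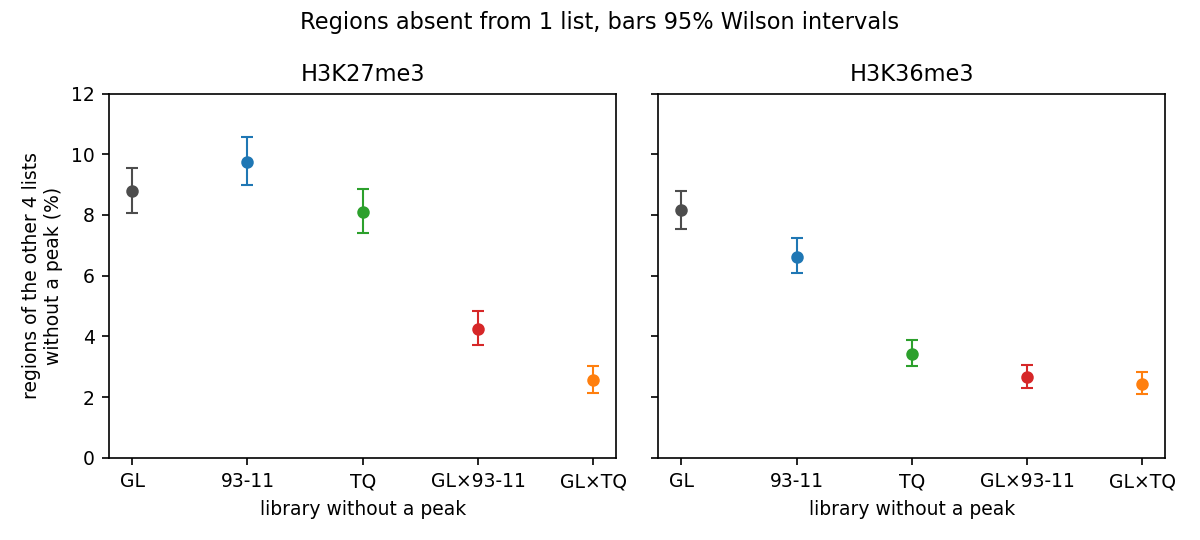
Share of merged regions without a peak in the named library, in percent, among regions with peaks in the other 4 lists, for H3K27me3 (left) and H3K36me3 (right), with 95% Wilson intervals. The hybrids lie at 4.24% and 2.55% for H3K27me3 and at 2.66% and 2.44% for H3K36me3, below each of the 3 varieties.

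Regions that both hybrids lacked while all varieties had a peak were few. There were 63 for H3K27me3 (1.18% of regions with peaks in the other 3 lists, 0.924% to 1.51%) and 49 for H3K36me3 (0.695%, 0.526% to 0.918%). Of the 10 pairs of lists that can be absent together, the pair of hybrids was the second fewest for each mark. Pairs of a variety and its hybrid were absent together more often, with 320 H3K27me3 regions lacking 93-11 and GL×93-11 and 228 lacking TQ and GL×TQ. The corresponding H3K36me3 counts were 158 and 131. GL was absent together with GL×93-11 at 173 H3K27me3 and 217 H3K36me3 regions, and with GL×TQ at 107 and 182. Other pairs were absent together too. The varieties 93-11 and TQ were absent together at 241 and 234 regions, 93-11 with GL×TQ at 160 and 118, and TQ with GL×93-11 at 102 and 39. For 93-11 and TQ, the count with the other hybrid was thus below that with the own hybrid for both marks. As shares of H3K27me3 regions in the other 3 lists, 93-11 had 5.34% with its own and 2.78% with the other hybrid, and TQ 3.99% and 1.80%. The H3K36me3 shares were 2.12% and 1.59%, and 1.82% and 0.549%.

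The missing regions stood out most by the weakness of the parental peaks. For H3K27me3, the lowest score among the 3 varieties had a median of 63.1 (60.5 to 64.8) at the missing regions and of 122.4 (119.5 to 124.8) at regions of all 5 genotypes. For H3K36me3 the medians were 66.4 (64.5 to 68.3) and 143.3 (140.4 to 146.5). A score of 100 or more in all 3 varieties was found at 42 of the 410 missing H3K27me3 regions and at 71 of the 397 missing H3K36me3 regions. Among regions of all 5 genotypes, 3098 of 4928 and 4718 of 6650 reached it. Regions that both hybrids lacked were the weakest class, with median lowest scores of 57.1 for H3K27me3 and 59.1 for H3K36me3.

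The share of missing regions fell with each step in the lowest parental score in each hybrid and for each mark. At a lowest score under 60, 177 of 594 H3K27me3 regions were missing in at least 1 hybrid (29.8%, 26.3% to 33.6%). The share was 17.4% from 60 to 75, 7.84% from 75 to 100, 2.27% from 100 to 150 and 0.922% from 150 to 200. At 200 or more, 6 of 1101 regions were missing (0.545%, 0.25% to 1.18%). H3K36me3 gave 138 of 520 (26.5%, 22.9% to 30.5%) under 60 and 11 of 1916 (0.574%, 0.321% to 1.02%) at 200 or more. The H3K27me3 shares of GL×93-11 and GL×TQ were equal from 100 to 150, with 15 of 1280 regions each, and at all other classes GL×93-11 was higher for this mark. For H3K36me3, GL×93-11 was higher under 75 and GL×TQ was higher in every class from 75 upward.

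**Figure D2:**
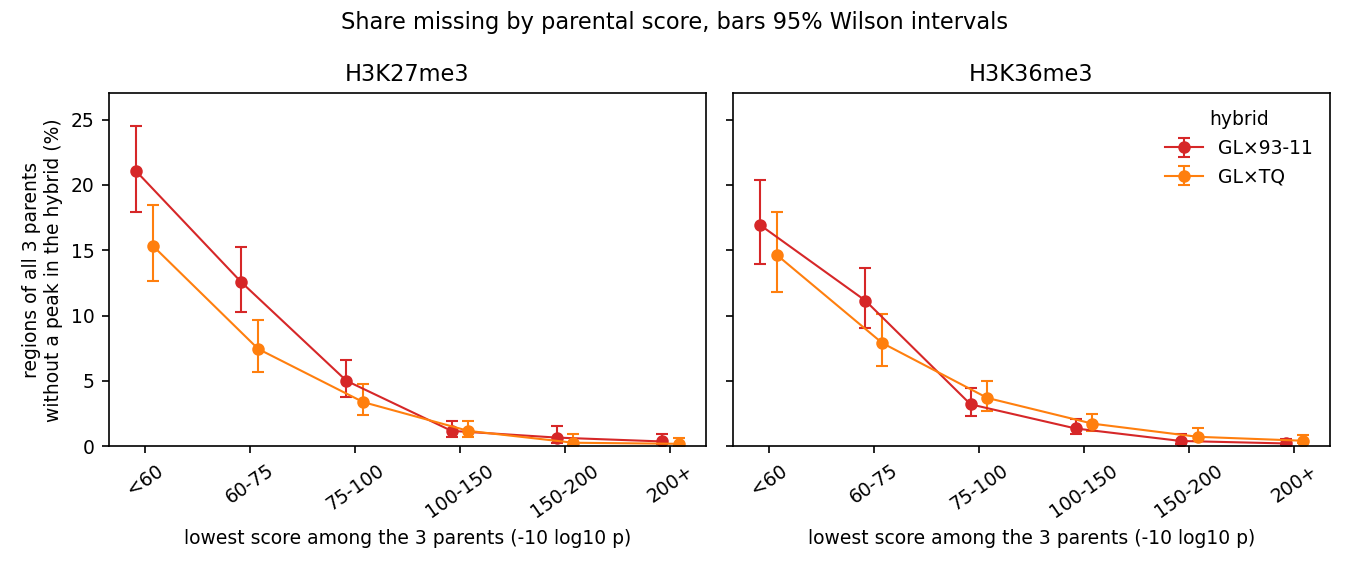
Share of regions of all 3 varieties that a hybrid lacked, in percent for GL×93-11 and GL×TQ, by the lowest of the 3 parental scores (negative log10 of p, multiplied by 10), with 95% Wilson intervals. For GL×93-11 the H3K27me3 share goes from 21.0% under 60 to 0.363% at 200 or more.

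When parental peaks were limited to scores of 100 or more and hybrid peaks were taken at any score, 42 of 3140 H3K27me3 regions remained missing (1.34%, 0.991% to 1.80%) and 71 of 4789 H3K36me3 regions (1.48%, 1.18% to 1.87%). GL×93-11 then lacked 24 and GL×TQ 19 for H3K27me3, and 31 (0.647%, 0.456% to 0.917%) and 45 (0.940%, 0.703% to 1.25%) for H3K36me3, with overlapping intervals. When the limit of 100 was set for the hybrid peaks as well, the missing share rose instead, to 317 of 3139 H3K27me3 regions (10.1%, 9.09% to 11.2%) and 374 of 4790 H3K36me3 regions (7.81%, 7.08% to 8.6%). GL×93-11 then lacked more regions than GL×TQ for both marks, 232 against 133 and 231 against 195.

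The parent with the weakest peak differed between the classes. At H3K36me3 regions of all 5 genotypes the lowest score was that of 93-11 in 56.8% (55.6% to 58.0%), of GL in 27.4% and of TQ in 15.8%. At the missing H3K36me3 regions it was that of 93-11 in 37.3% (32.7% to 42.1%), of GL in 39.5% and of TQ in 23.2%. The H3K36me3 list of 93-11 had the lowest median score of the varieties, 142.4 beside 170.5 in GL and 163.1 in TQ. Its library also had the fewest unique mapped reads of the 5 genotypes for this mark. Whether depth bears on these shares was not tested. Among regions with a lowest score under 100, the 93-11 share was 46.95% (44.7% to 49.2%) at shared and 35.6% (30.6% to 40.9%) at missing regions, a smaller gap. The weakest peak was in TQ at 30.1% (23.7% to 37.5%) of the regions that GL×TQ alone lacked and at 15.9% (11.3% to 22.0%) of those that GL×93-11 alone lacked. For H3K27me3 the shares varied less, with GL the weakest at 29.0% of the missing regions and at 24.5% of the regions of all 5 genotypes.

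In length, missing H3K36me3 regions were longer than shared ones, while missing H3K27me3 regions were shorter in the median, with intervals that overlap. The median missing H3K27me3 region was 2261 bp long (2052 to 2444), beside 2442.5 bp (2407 to 2476) for all 5 genotypes. The median missing H3K36me3 region was 3416 bp long (3224 to 3533), beside 3023 bp (3000 to 3044). Regions lacked by both hybrids were at the ends of this range, at 1778 bp (1571 to 2610) for H3K27me3 and 3764 bp (2989 to 3939) for H3K36me3. For regions lacked by GL×93-11 alone the medians were 2385.5 bp and 3104.5 bp, and for those lacked by GL×TQ alone 2194 bp and 3509.5 bp. A region of all 5 genotypes is merged from more lists than a missing one. Over the parental peaks only, the medians were 2178.5 bp and 2393 bp for H3K27me3, and 3377 bp and 2985.5 bp for H3K36me3, so the order of missing and shared regions stayed the same. Among regions with a score of 100 or more in all 3 varieties, the H3K27me3 order turned, with 3071.5 bp (2600 to 3301) at missing and 2463.5 bp (2418 to 2496) at shared regions, and missing regions of both marks were then the longer ones.

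By the longest parental peak, the share missing in at least 1 hybrid was high at both ends and low in the middle. For H3K27me3 it was 21.7% (14.9% to 30.5%) under 1000 bp, 4.42% (3.35% to 5.82%) from 2000 to 2500 bp and 18.1% (12.6% to 25.1%) at 4000 bp or more. For H3K36me3 it was 15.1% (7.85% to 27.0%) under 1000 bp, 3.15% (2.36% to 4.21%) from 2500 to 3000 bp and 20.2% (16.0% to 25.2%) at 4000 bp or more. The longest peaks of the 10 lists were 4348 to 4532 bp, so the last class lies at the upper end of what the lists hold. The lowest parental score moved in step with this, with H3K27me3 medians of 75.4, 143.7 and 67.6 and H3K36me3 medians of 77.1, 191.4 and 63.8 in the same 3 classes. Within score classes the gap between long and short regions varied. Among H3K36me3 regions with a lowest score under 75, 23.4% (20.0% to 27.2%) were missing at 3500 bp or more and 19.4% (16.7% to 22.5%) below, and for H3K27me3 20.8% and 23.7%. With a lowest score of 100 or more, 2.53% (1.61% to 3.97%) of the long H3K36me3 regions and 1.30% (0.995% to 1.70%) of the shorter ones were missing. For H3K27me3 these shares were 2.66% (7 of 263, 1.29% to 5.39%) and 1.22% (35 of 2877, 0.876% to 1.69%), again higher for the long regions. This class has no upper limit, and score was not equal within it. The median lowest score was 132.4 at long and 191.2 at shorter H3K36me3 regions, and 131.8 and 171.9 for H3K27me3.

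**Figure D3:**
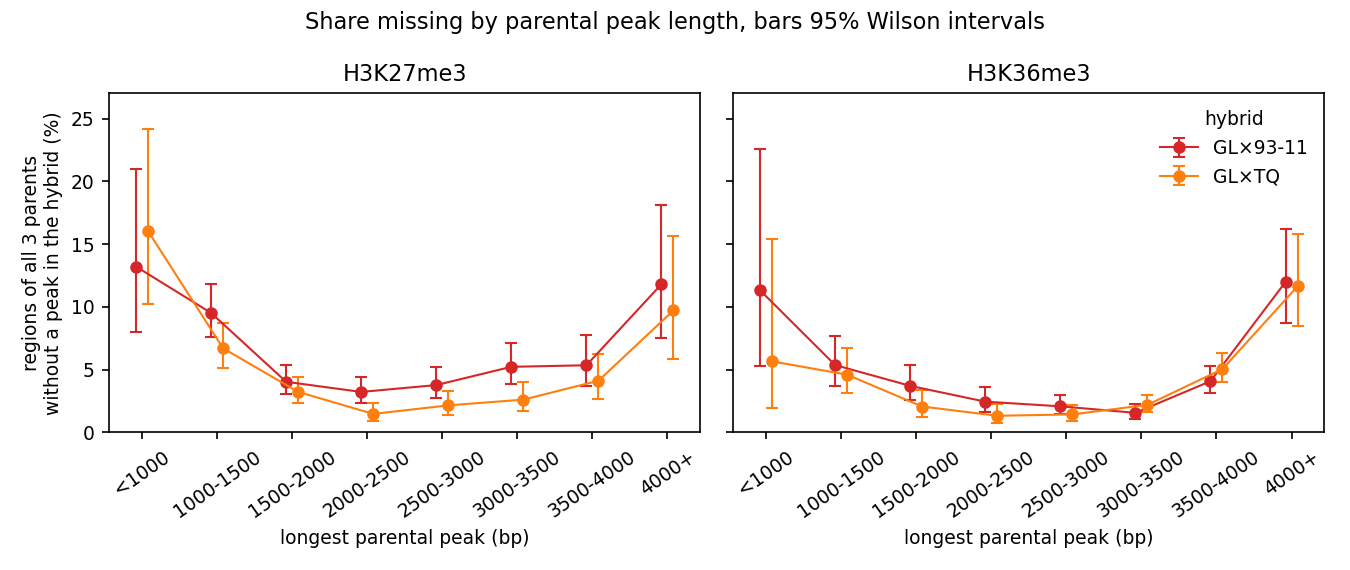
Share of regions of all 3 varieties that a hybrid lacked, in percent for GL×93-11 and GL×TQ, by the length of the longest parental peak in bp, with 95% Wilson intervals. The shares are high at both ends except for GL×TQ and H3K36me3, where the shortest class has 3 of 53 regions (5.66%, 1.94% to 15.4%) and the class of 4000 bp or more 11.6%.

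Parental tags per kb were lower at missing H3K27me3 regions in each variety. At regions lacked by GL×93-11 alone, the median was 158.8 tags per kb of peak in GL, 139.8 in 93-11 and 139.7 in TQ. At regions lacked by GL×TQ alone the medians were 174.2, 141.8 and 132.6 in the same order, and at regions lacked by both they were 161.8, 131.4 and 128.9. Regions of all 5 genotypes had 216.2, 180.2 and 173.4 tags per kb, higher in each variety than any class of missing regions. Per 1000000 unique mapped reads and averaged over the 3 varieties, the median level was 3.6 (3.52 to 3.74) at the missing regions and 4.72 (4.66 to 4.77) at those of all 5 genotypes.

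For H3K36me3 the tags per kb depended on which hybrid lacked the region. Regions lacked by GL×93-11 alone had medians of 236.2 tags per kb in GL, 178.3 in 93-11 and 237.1 in TQ. Those lacked by GL×TQ alone had 289.8, 214.9 and 286.3, and regions of all 5 genotypes had 294.1, 214.2 and 279.4. The median level was 4.84 (4.30 to 5.30) for regions lacked by GL×93-11 alone and 5.81 (5.38 to 6.24) for regions lacked by GL×TQ alone, the latter close to the 5.84 (5.79 to 5.89) of all 5 genotypes. Regions lacked by both hybrids lay between, at 5.20 (4.67 to 6.51).

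Fold enrichment was lower at missing regions of both marks. The median fold of the H3K27me3 peaks of GL was 2.94 at missing regions and 3.42 at regions of all 5 genotypes, with 3.01 and 3.35 in 93-11 and 2.97 and 3.34 in TQ. The H3K36me3 medians were 2.66 and 2.97 in GL, 2.74 and 3.10 in 93-11 and 2.60 and 2.96 in TQ. The missing regions with a score of 100 or more in all 3 varieties also had a lower fold than regions of all 5 genotypes with such scores. For the 42 H3K27me3 regions the GL medians were 3.13 and 3.61, while their median level of 5.61 (4.37 to 6.29) was not lower than 5.12 (5.05 to 5.18). The 71 H3K36me3 regions of this kind showed the same order, with median lengths of 3377 and 2981 bp, GL folds of 2.74 and 3.06 and levels of 6.40 and 6.07.

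The spread between the varieties was no larger at the missing regions than at the shared ones. The highest parental level was 1.24 times the lowest (1.22 to 1.27) at the median missing H3K27me3 region and 1.28 times (1.27 to 1.29) at the median region of all 5 genotypes. For H3K36me3 the ratios were 1.13 and 1.14. The part of a region under peaks of all 3 varieties had a median of 69.5% at missing and 78.4% at shared H3K27me3 regions, and of 79.0% and 82.1% for H3K36me3. At 3 missing regions of each mark the parental peaks formed a chain with no base under the peaks of all 3 varieties.

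Where a hybrid still had the peak, its level relative to its own parents was close to that at other regions, but its score was often close to the limit. At H3K27me3 regions lacked by GL×93-11 alone, the median level of GL×TQ was 0.914 times (0.900 to 0.923) the mean of GL and TQ, beside 0.889 times at regions of all 5 genotypes. In GL×93-11, at regions lacked by GL×TQ alone, the ratio to GL and 93-11 was 0.983 (0.957 to 1.01), beside 0.975. The H3K36me3 ratios were 0.958 in GL×TQ, beside 0.951, and 0.958 in GL×93-11, beside 0.964. The score of the hybrid that kept the peak was under 75 at 39.9% and 47.3% of these H3K27me3 regions and at 36.3% and 24.1% of these H3K36me3 regions, for GL×TQ and GL×93-11 in turn. At regions of all 5 genotypes the shares were 7.47%, 9.33%, 5.38% and 5.5% in the same order. Among regions whose lowest parental score was also under 75, the H3K27me3 shares were 47.4% and 60% beside 25.2% and 28.6%.

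The strongest members are named by a fixed rule, the 3 regions per mark and class with the highest lowest parental score. The strongest H3K27me3 region that GL×93-11 alone lacked lay on chromosome 1 from 39507422 to 39510546. It held 2096 tags in GL (95% Poisson interval 2007 to 2188), 1769 in 93-11 (1688 to 1853), 1817 in TQ (1734 to 1903) and 1918 in GL×TQ (1833 to 2006). All 4 libraries had scores of 380.4 or more, while their folds of 2.07 to 2.53 were under the medians of the missing regions. The nearest peak of GL×93-11 began 3928 bases away and had a score of 1189.2.

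Both other regions of this class were on chromosome 5. From 28327730 to 28330078 the levels were 9.44 in GL, 4.54 in 93-11, 7.40 in TQ and 6.73 in GL×TQ, so the tags per kb of 93-11 were the lowest of the 4. From 778529 to 781408 they were 10.3, 9.64, 11.0 and 9.46, which are close to each other. The nearest GL×93-11 peaks lay 7986 and 2262 bases away, with scores of 75.5 and 210.3.

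Of the H3K27me3 regions that GL×TQ alone lacked, the strongest lay on chromosome 3 from 24909172 to 24912279, with levels of 7.37 in GL, 6.19 in 93-11, 8.21 in TQ and 8.34 in GL×93-11. The hybrid that kept the peak had the highest score there, 435.7 against 238.4 to 251.2 in the varieties. The next lay on chromosome 1 from 12806224 to 12809290, with levels of 6.67, 5.36, 6.28 and 6.55. It adjoins a further region that GL×TQ alone lacked, from 12802250 to 12806187, with 1073 tags in GL, 853 in 93-11, 909 in TQ and 1078 in GL×93-11, and together they span 7041 bp. The nearest GL×TQ peak lay 2674 bases from the first. On chromosome 6 from 28884168 to 28886510, levels were 6.71 in GL, 7.53 in 93-11, 7.84 in TQ and 6.76 in GL×93-11, and the score of 93-11, 538.5, was far above the 172.5 of the hybrid.

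Among the H3K27me3 regions that both hybrids lacked, that on chromosome 3 from 3365538 to 3369572 stood above the rest of its class. It held 1998 tags in GL (1911 to 2088), 1820 in 93-11 (1737 to 1906) and 1789 in TQ (1707 to 1874), with scores of 216.5, 135.0 and 239.4. It was the only region of this class with a score of 100 or more in all 3 varieties. The nearest peaks of GL×93-11 and GL×TQ were 11386 and 11370 bases away, while peaks of H3K36me3 lay 457 to 999 bases away in all 5 genotypes. The other named regions of the class were weaker, with levels of 4.54 to 4.74 on chromosome 7 from 21662232 to 21665384 and of 2.84 to 3.25 on chromosome 1 from 22182195 to 22183435.

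**Figure D4:**
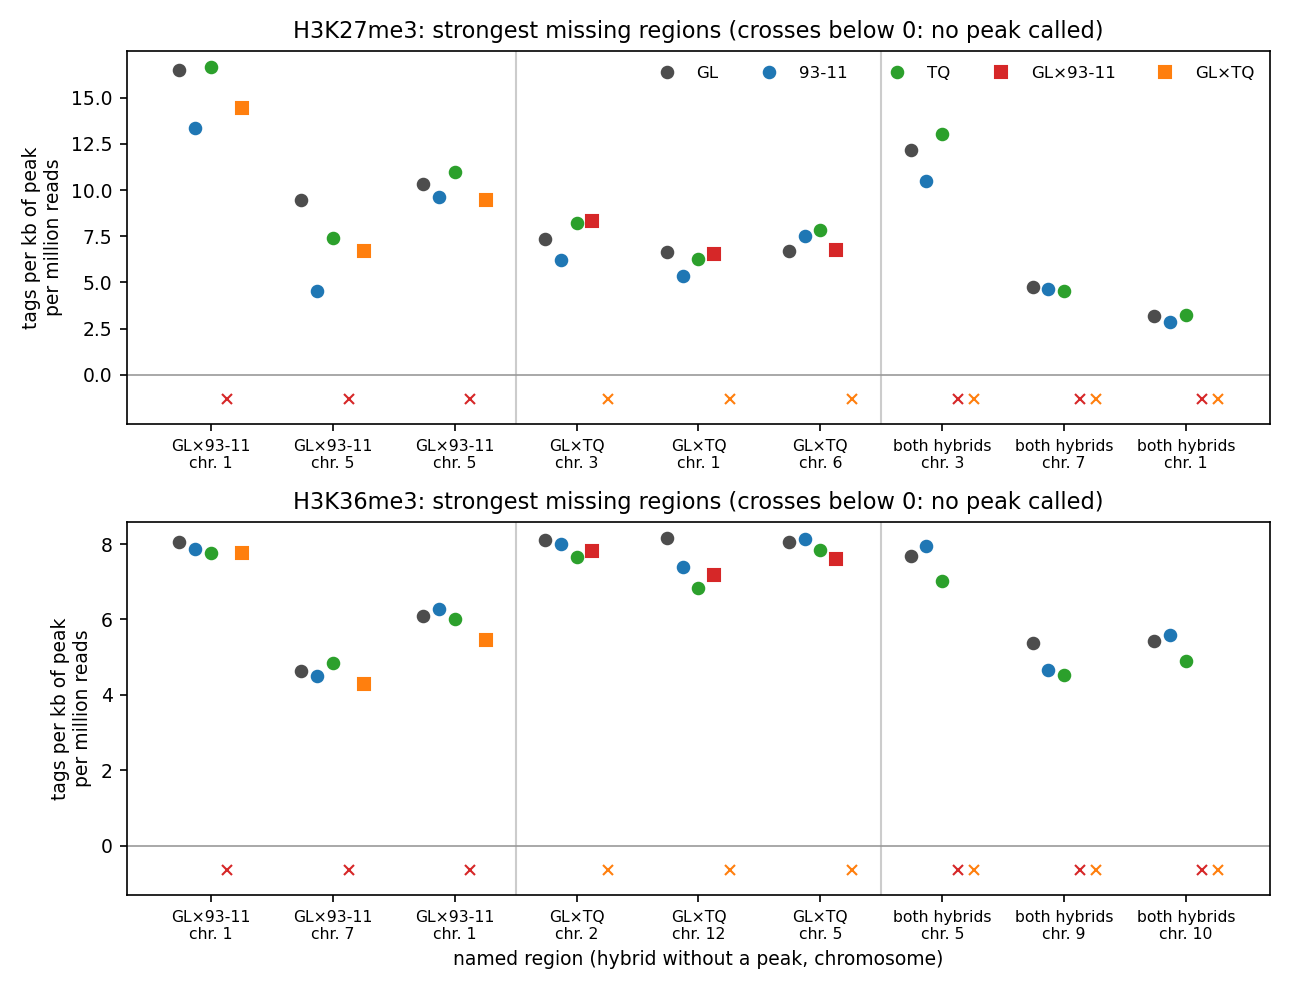
Level in tags per kb of peak per 1000000 unique mapped reads at the 9 named regions of each mark, H3K27me3 (top) and H3K36me3 (bottom), with circles for varieties, squares for hybrids and crosses for a hybrid with no called peak. The hybrid that kept the peak lies within or below the range of the varieties, except at the H3K27me3 region of chromosome 3 with a level of 8.34, beside 6.19 to 8.21 in the varieties.

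For H3K36me3, the strongest region that GL×93-11 alone lacked was on chromosome 1 from 40442079 to 40445577, with levels of 8.06 in GL, 7.86 in 93-11, 7.77 in TQ and 7.76 in GL×TQ. The 4 genotypes with a peak were nearly alike, and the nearest GL×93-11 peak was 30259 bases away. On chromosome 7 from 7309066 to 7311936 the levels were 4.63, 4.50, 4.84 and 4.28. Here GL×93-11 had a peak of 404 tags only 369 bases from the region, and the score of GL×TQ, 103.7, was far under the 214.1 to 356.8 of the varieties. On chromosome 1 from 34404911 to 34408363, the levels were 6.10 in GL, 6.29 in 93-11, 6.01 in TQ and 5.46 in GL×TQ, the hybrid being the lowest.

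The regions of H3K36me3 that GL×TQ alone lacked included the strongest of all missing H3K36me3 regions by the lowest parental score. It lay on chromosome 2 from 24767082 to 24769550 and held 926 tags in GL (867 to 988), 730 in 93-11 (678 to 785), 897 in TQ (839 to 958) and 807 in GL×93-11 (752 to 865). Its scores were 288.0 to 500.6, and the nearest GL×TQ peak lay 7999 bases away. On chromosome 12 from 3427780 to 3431108 the levels were 8.15, 7.40, 6.83 and 7.19, and on chromosome 5 from 21064066 to 21067442 they were 8.06, 8.13, 7.85 and 7.61, in the order GL, 93-11, TQ and GL×93-11. The region on chromosome 5 overlapped an H3K27me3 peak in GL and in GL×93-11, and in GL×TQ the nearest peak of that mark was 24093 bases away.

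Both hybrids lacked an H3K36me3 region on chromosome 5 from 22429640 to 22432856 that all 3 varieties carried clearly. It held 1181 tags in GL (1115 to 1250), 770 in 93-11 (717 to 826) and 997 in TQ (936 to 1061), at scores of 277.8, 297.4 and 302.2 and folds of 2.96, 3.04 and 3.05. The nearest H3K36me3 peaks of GL×93-11 and GL×TQ were 20027 and 20237 bases away. An H3K27me3 peak lay 276 bases from it in GL, beside 263 in GL×93-11 and 266 in the other hybrid, whereas in 93-11 and TQ the nearest was 4195 and 4314 bases away. The distance was thus alike in GL and the hybrids, which does not show that the H3K27me3 peak is the same one. That GL had the H3K36me3 peak and the hybrids did not follows from the rule.

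On chromosome 9 from 16041708 to 16044481, both hybrids lacked a region with 711 tags in GL, 458 in 93-11 and 612 in TQ, and their nearest peaks were 51875 and 34801 bases away. The named region on chromosome 10 from 20653664 to 20659415 was 5752 bp long, of which 2417 bp lay under peaks of all 3 varieties. Its tags, summed over all peaks of a variety in the region, were 1255 in GL, 509 in 93-11 and 1327 in TQ. The levels were 5.44, 5.59 and 4.90, so more bases lay under peaks in GL and TQ than in 93-11.

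At the limit of the rule, the missing H3K27me3 region closest to a peak of a lacking hybrid lay on chromosome 2 from 20551260 to 20552531, with hybrid peaks 62 bases away in GL×93-11 and 88 in GL×TQ and a lowest parental score of 51.8. The closest missing H3K36me3 region lay on chromosome 2 from 2545944 to 2546935, 50 bases from a peak of GL×93-11, with a lowest score of 50.7. On the other side, the regions of all 5 genotypes with the fewest bases under a hybrid's peaks had 406 bases for H3K27me3, on chromosome 8 from 9279674 to 9280080, and 399 for H3K36me3, on chromosome 2 from 28714776 to 28715348. These were short regions, in which the varieties also had small peaks of 76 to 93 tags for H3K27me3 and 86 to 93 for H3K36me3. Most missing regions were farther from a peak of the hybrid. A peak of the same hybrid lay within 1000 bp of the region at 5.96% of the H3K27me3 regions that GL×93-11 alone lacked and at 12.4% of those that GL×TQ alone lacked, and at 9.89% and 6.02% for H3K36me3. At regions of all 5 genotypes, another peak of GL×93-11 or GL×TQ lay as close in 5.58% and 6.01% for H3K27me3 and in 7.04% and 7.14% for H3K36me3. The H3K27me3 share of GL×TQ, with an interval of 7.78% to 19.2%, was therefore the only one whose interval lay above that of all shared regions. It overlapped that of the weaker shared regions. With a lowest parental score under 100, 8.20% (7.03% to 9.54%) of the shared H3K27me3 regions had another GL×TQ peak as close. The median distance to the nearest peak of the lacking hybrid was 9379.5 and 8839 bases for H3K27me3 and 8349 and 8065.5 bases for H3K36me3, beside 10370.5, 10204.5, 7688 and 8051.5 bases at regions of all 5 genotypes.

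The other mark, which the rule did not use, was found at few missing regions and about as often as at regions of all 5 genotypes. H3K36me3 peaks overlapped 31 of the 410 missing H3K27me3 regions in GL (7.56%, 5.38% to 10.5%) and 436 of the 4928 regions of all 5 genotypes (8.85%, 8.09% to 9.67%). In the other 4 genotypes the shares were 5.37% to 6.34% at missing regions and 7.06% to 8.56% at regions of all 5 genotypes. Of the missing H3K36me3 regions, 23 of 397 overlapped an H3K27me3 peak in GL (5.79%, 3.89% to 8.54%), beside 474 of 6650 (7.13%, 6.53% to 7.77%). The shares at missing regions were the lower ones in every genotype and for both marks, with intervals that overlap in each of the 10 pairs.

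**Figure D5:**
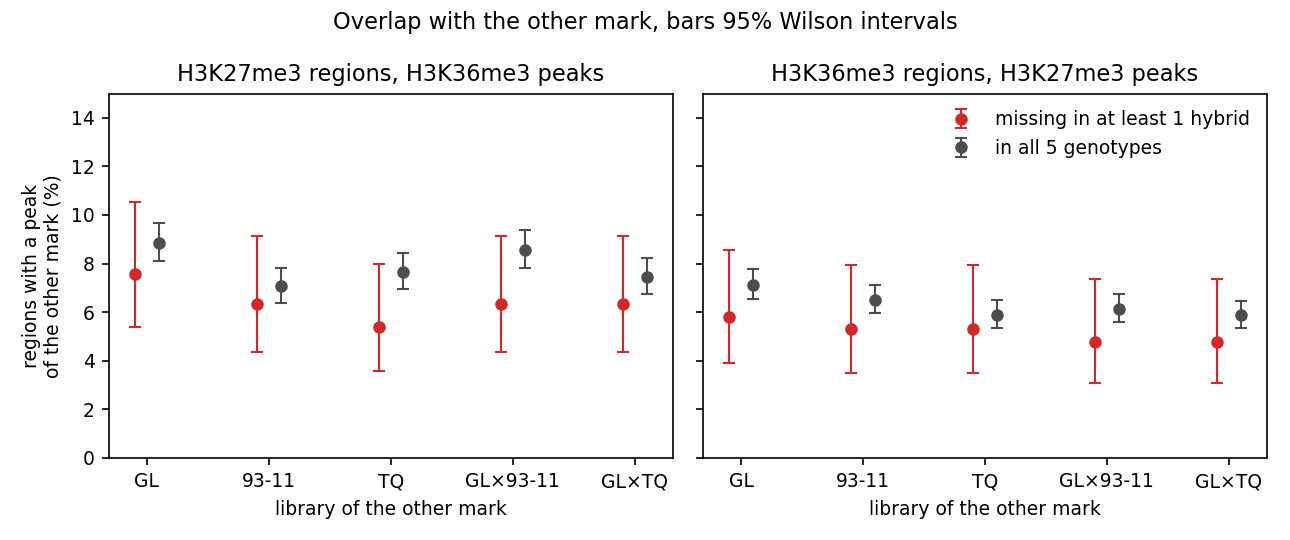
Share of regions that overlap a peak of the other mark by 1 bp or more, in percent, by the genotype of the other mark's library, for regions missing in at least 1 hybrid and regions of all 5 genotypes, with 95% Wilson intervals. In GL the shares are 7.56% and 8.85% for H3K27me3 regions and 5.79% and 7.13% for H3K36me3 regions, and all intervals overlap.

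At H3K27me3 regions the lacking hybrid had a peak of the other mark in 17 of 281 cases for GL×93-11 (6.05%) and 12 of 192 for GL×TQ (6.25%). At H3K36me3 regions it had one in 9 of 231 (3.90%) and 9 of 215 (4.19%). Cases with the other mark in the lacking hybrid and in no variety were rarer. None of the 281 H3K27me3 regions without a peak in GL×93-11 had an H3K36me3 peak in GL×93-11 and in no variety, which allows a share of up to 1.07%, and 1 of 192 had this in GL×TQ (0.521%, 0.092% to 2.89%). For H3K36me3 regions the counts of H3K27me3 peaks were 0 of 231 in GL×93-11, which allows up to 1.30%, and 0 of 215 in GL×TQ, which allows up to 1.4%. At regions where the hybrid had its peak, 25 of 5057 and 7 of 5146 H3K27me3 regions and 12 of 6816 and 10 of 6832 H3K36me3 regions had the other mark in that hybrid and in no variety. Such cases were thus rare there too, so the counts of 0 are not particular to the missing regions.

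The marks were missing together at a single place. Few joint places were open to this count. H3K36me3 peaks overlapped 39 of the 410 missing H3K27me3 regions in at least 1 variety and 15 in all 3. Of all H3K36me3 regions of the 3 varieties, 5.63% were missing. The single place therefore does not show that the marks went missing separately. On chromosome 5, an H3K27me3 region from 3560297 to 3564373 and an H3K36me3 region from 3562712 to 3564253 overlapped, and GL×93-11 alone lacked both. The H3K27me3 tags were 295 in GL, 752 in 93-11, 789 in TQ and 373 in GL×TQ, and the H3K36me3 tags were 277, 217, 276 and 271. Both regions were weak in at least 1 variety, with lowest scores of 59.3 and 56.7.

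Missing regions lay on all 12 chromosomes. GL×93-11 lacked from 3.25% (12 of 369, 1.87% to 5.60%) of the H3K27me3 regions of chromosome 8 to 7.82% (32 of 409, 5.60% to 10.8%) of those of chromosome 5, while GL×TQ lacked from 2.19% on chromosome 3 to 4.87% on chromosome 6. On chromosome 5, where GL×93-11 had its highest share, GL×TQ lacked 9 of 409 regions (2.2%, 1.16% to 4.13%). For H3K36me3 the range was 2.16% on chromosome 12 to 4.32% on chromosome 3 in GL×93-11, and 1.81% on chromosome 7 to 3.84% on chromosome 2 in GL×TQ, with wide intervals on each chromosome.

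Some missing regions were neighbours in the order of regions of all 3 varieties. For H3K27me3, 63 missing regions stood in 30 runs of at least 2, and for H3K36me3 56 stood in 27 runs, none longer than 3. A missing H3K27me3 region had a missing neighbour in 15.4% of cases (12.2% to 19.2%) and a region of all 5 genotypes in 14.8% (13.9% to 15.8%), whereas for H3K36me3 the shares were 14.1% (11.0% to 17.9%) and 10.7% (9.96% to 11.4%). A run of 3 H3K36me3 regions on chromosome 1, from 24280743 to 24315519, was missing from GL×TQ throughout and from GL×93-11 at its first and last region. On chromosome 5 GL×93-11 alone lacked 3 H3K36me3 regions in a row from 3500967 to 3564253, the last of which is the place where both marks were missing. All 3 members of that run were weak, with lowest scores of 53.6, 52.0 and 56.7. The longest run by span was that of 3 H3K27me3 regions on chromosome 1 from 15194215 to 15435976, all without a peak in GL×93-11.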

How the data were processed

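Leaf chromatin of 5 genotypes was precipitated for H3K27me3 and H3K36me3 and sequenced on an Illumina GAIIx. Reads were filtered by the authors and aligned with SOAP2 to Nipponbare sequences from Gramene (release: not given in the sources used here). MACS at its default settings then called peaks per library. No input control is named for this step. The deposited lists give tag counts per peak, not normalized. The score of the deposited lists, the negative log10 of the p-value from MACS multiplied by 10, has lost its heading and was recognised from its lowest value of about 50. The fold enrichment ratio is that of the authors' MACS output.

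Peaks of the 5 lists of a mark were merged at an overlap of 1 bp or more, and regions were classed by the lists with a peak in them. For levels, the tags of a peak were divided by its length in kb and by the study's total of unique mapped reads of the library, per 1000000. Where a variety had several peaks in a region, the highest score was used. Length of a region is that of the merged interval. With 1 library per genotype and mark no test was possible. Shares carry 95% Wilson intervals, medians 95% order-statistic intervals and tags 95% Poisson intervals. A count of 0 is given with the share that 3 counts would make. Regions were named by rule, as the 3 per mark and class with the highest score in the variety where it is lowest, plus the regions at the limit of the rule. Other regions in runs, next to a named region or missing for both marks were chosen after their values were seen. The members, lists and measures were chosen with earlier results of these data known.

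The code for the classes was run on lists made from the H3K27me3 peaks of GL, with shortened ends and whole peaks removed. All regions were recovered in the class they were made for. These lists held no weak, shifted or chained peaks, so the run checks the code and not how certain the classes are. Alternatives changed the score threshold, the number of peaks per list, the merging distance, the overlap between varieties, the parents asked for, the hybrid peaks within 1000 bp, the length used and the library total. The work was done in Python 3.11.15 with pandas 2.3.3, numpy 2.4.6, matplotlib 3.10.9 and scipy 1.17.1. Gene models, allelic reads and sequences were not used here.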

Additional observations from a re-analysis of the deposited data

How the results depend on the processing

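No paired analysis was possible because each genotype has 1 library per mark and no replicate numbers. With parental peaks of a score of 100 or more only, the missing H3K27me3 regions fell from 410 to 42, with 24 in GL×93-11 and 19 in GL×TQ, a median length of 3071.5 bp and a median level of 5.61. The missing H3K36me3 regions fell from 397 to 71, with 31 and 45 and a level of 6.40. With only the own parents of a hybrid required, the counts rose to 1078 for H3K27me3 (549 in GL×93-11, 592 in GL×TQ) and 690 for H3K36me3 (417 in GL×TQ). With lists of equal length, GL×93-11 lacked 182 H3K27me3 regions. With the tags in peaks as library total the H3K27me3 level was 3.45, and with tags divided by the merged length it was 2.99, or 4.74 for H3K36me3. An added alternative, chosen after seeing the data, kept regions with a longest parental peak under 3500 bp and left 231 missing H3K36me3 regions. The cause of these shifts was not tested beyond what the settings remove or add. The other 47 values stayed within 1.5 times the reported count or within the interval of the reported median. This limit was set on counts, and some shares among them moved beyond their intervals. The missing H3K27me3 share went from 7.68% (7.0% to 8.43%) to 10.1% (9.09% to 11.2%) with a score of 100 or more in all lists. With lists of equal length it was 5.86% (5.23% to 6.56%). The H3K36me3 share of GL×93-11 then went from 3.28% (2.89% to 3.72%) to 4.38% (3.92% to 4.89%). A peak that misses the calling threshold counts as missing, and scores depend on depth, so weak regions are the least certain members.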
